A study of Mus musculus with 6 samples.

Results

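The expression of 8 genes was followed whose enzymes take long-chain fatty acids into mitochondria, shorten them there, or spare pyruvate while fat is burned: Cpt1a, Cpt2, Acadm, Acadl, Acadvl, Hadha, Hadhb and Pdk4. They were read from every probe set whose platform annotation names exactly 1 gene and that gene is on this list, which gave 8 of the 18163 genes that the array names in this way and 14 of its 44935 probe sets. Of the genes, 4 had 1 probe set, 2 had 2 and 2 had 3. RNA came from the whole adrenal gland of male mice aged 3 months with the genotype Per2Brdm1/Cry1-/- on a mixed C57BL6x129Sv background, and the labels call these mice clock-deficient. Glands were collected 54 h (3 arrays) or 46 h (3 arrays) after lights off, in constant darkness after 2 weeks of a light-dark cycle. Every array carried both mutations, and wild-type glands were not analysed here, so the comparison is between 2 times that lie 8 h apart in clock-deficient glands. The arrays at each time are called replicates 1, B and C. The labels do not say whether each array is 1 animal, so each p-value rests on the spread of these 6 samples, part or all of which may be technical, and any other difference between the collections cannot be told apart from time.

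Fatty acids enter the mitochondrial matrix through the carnitine shuttle, in which CPT1 at the outer membrane makes acylcarnitine and CPT2 at the inner membrane turns it back into acyl-CoA. Each turn of beta-oxidation then begins with an acyl-CoA dehydrogenase chosen by chain length and, for long chains, is completed by the trifunctional protein. Malonyl-CoA, made by the acetyl-CoA carboxylases, inhibits CPT1, and the nuclear receptor PPAR alpha is a known activator of many of these genes. In the adrenal cortex, fatty acids are stored in lipid droplets as esters of cholesterol, the starting point of steroid synthesis.

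The glands read as adrenal: the 8 cortex markers, among them Star, Cyp11a1 and Mc2r, summed to between 104410 and 113718 intensity units on the 54 h arrays and between 108790 and 114819 on the 46 h arrays. Array medians over all probe sets lay between 204 and 217 units. Markers of liver, an organ rich in these enzymes, were higher at 54 h, with 10 of 11 tested at an unadjusted limma p of 0.05, where 4.11% of all genes were called higher. The 13 liver markers with a probe set summed to between 9290 and 13706 units at 54 h and between 4307 and 6652 units at 46 h, and none was at 0. Of these, 2, the serpin gene Serpina1b and the cytochrome gene Cyp3a11, rose in the adjusted test (limma adjusted p = 0.0343 and 0.0424), though the Serpina1b probe set may also read close copies of that gene. Albumin, Alb, read 3319, 5236 and 4303 units at 54 h and 2656, 1565 and 2311 units at 46 h. The 7 adipose markers summed to between 27675 and 34966 units at 54 h and between 26059 and 32342 units at 46 h. Of the 6 adipose markers tested, 3 were higher at 54 h at an unadjusted limma p of 0.05, namely Ucp1, Cidea and Lep with log2 changes of 0.56, 0.67 and 0.59, whereas Retn had 0.10, Fabp4 -0.06 and Adipoq -0.11. Of the 8 skeletal muscle markers, 4 were tested, and 2 of these were higher at 54 h at that p, against 4.11% of all genes. Eno3 had a log2 change of 0.50 and Myl1 of 0.40, whereas Ckm had -0.01 and Tnni2 -0.18. The 8 muscle markers summed to between 2730 and 3163 units at 54 h and between 2337 and 2515 units at 46 h. Of 2 kidney markers tested, 0 were called at that p. What part these tissues have in the values below was not tested. In such bulk samples fewer cells of a type and less RNA per cell cannot be told apart. The 3′ to 5′ signal ratio of the actin control probe sets, a sign of RNA quality, was 1.48 to 1.57 at 54 h and 1.46 to 1.55 at 46 h.

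Across the pathway no member passed the test. Of the 14 probe sets, 12 lay above the filter on low values, and 0 of these 12 passed limma at an adjusted p of 0.05, where 0.115% of all 26961 probe sets tested were called. At an unadjusted p of 0.05 in limma, 5 of the 12 were lower at 54 h and 0 were higher; of all probe sets tested, 10.1% were called either way, 5.75% lower and 4.34% higher. That count of 5 was 2 without 46h replicate 1 or 46h replicate C, and 3 without 54h replicate 1 or 54h replicate C. Of all probe sets, 4.08%, 6.86%, 3.98% and 2.77% were lower at that p in these fits, in that order. A log2 change below 0 was found for 8 of the 12, against 55.6% of all probe sets. With each gene read from its probe set of highest mean, 6 of 8 members had a log2 change below 0, the exceptions being Hadhb and Pdk4, against 56.7% of all genes. Their median log2 change was -0.14, against -0.02 over all 13780 genes tested. Read in the same way, 8 of 8 cortex markers (median -0.05) and 7 of 8 markers of the adrenal medulla (median -0.08) also had a log2 change below 0. The arrays of the 2 times did not overlap for 4 of the 12 probe sets, each with 54 h below 46 h, where 9.05% of all probe sets were separated in that direction. These members were chosen with earlier results of the same arrays known, so the counts describe them and are not independent support. The 95% confidence intervals of 11 of the 12 probe sets lay within a 1.5-fold difference either way; that of Pdk4 did not.

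**Figure D1:**
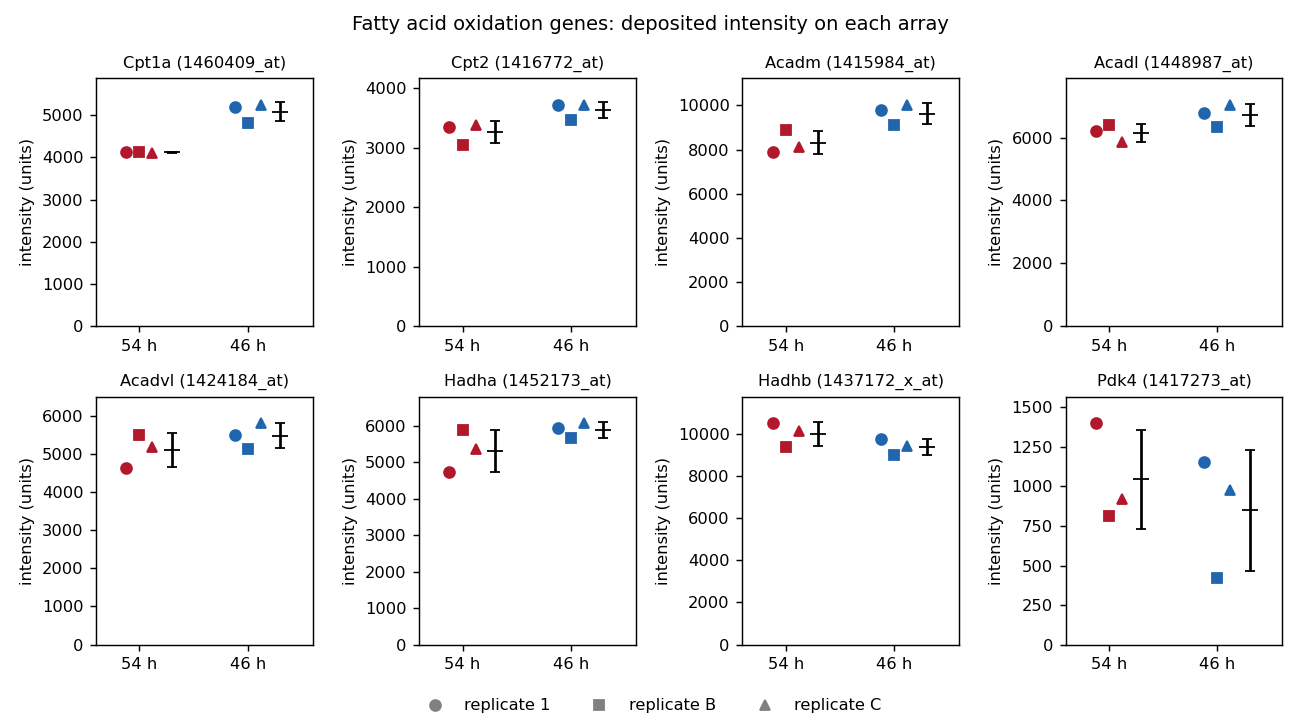
Deposited intensity on each array for the brightest probe set of each of the 8 genes, on linear axes that start at 0, with replicates 1, B and C as separate symbols and the mean ± SD of each time in black. For Cpt1a, Cpt2 and Acadm all 3 arrays of 54 h lie below all 3 of 46 h, whereas the other 5 genes overlap between the times.

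Cpt1a, the liver-type isoform of the rate-limiting acyltransferase, had the smallest p of the members. Its brightest probe set, 1460409_at, read 4122, 4129 and 4099 units at 54 h and 5195, 4818 and 5244 units at 46 h. The 54 h arrays lay close together, and all were below the 46 h arrays. The means were 4117 ± 15.9 units at 54 h and 5086 ± 233 units at 46 h (SD, n = 3 each). On the log2 scale the 54 h arrays stood at -0.30 ± 0.05 SE relative to 46 h, with a 95% interval from -0.42 to -0.19 (limma adjusted p = 0.0838). The difference of 1.23-fold was larger than the spread between the arrays of either time but did not pass the adjustment over all probe sets.

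The other probe sets of Cpt1a gave a different picture. Probe set 1434866_x_at read 4074, 3251 and 3807 units at 54 h and 3591, 3529 and 3405 units at 46 h, a log2 change of 0.07 ± 0.08 SE. Probe set 1438156_x_at read 3526, 2680 and 3266 units at 54 h and 3017, 2929 and 2793 units at 46 h, a log2 change of 0.11 ± 0.10 SE. On both, 54h replicates 1 and C lay above every 46 h array and 54h replicate B below every one. Without 54h replicate 1 the log2 changes were 0.00443 for 1434866_x_at and 0.02 for 1438156_x_at, and without 54h replicate B they were 0.17 and 0.22. Affymetrix gives the suffix _x_at to probe sets that hold probes shared with other sequences; which other transcripts these might read was not tested. The change of 1460409_at minus that of 1434866_x_at was -0.38 on the log2 scale, and minus that of 1438156_x_at -0.41. In both cases all arrays of 54 h lay below all of 46 h. A two-sided exact permutation test, which was not planned, gave p = 0.1, the smallest that 3 against 3 arrays allow. Benjamini-Hochberg adjustment over the 5 pairs of probe sets compared in Cpt1a and Hadhb gave 0.167. The Hadhb probe sets 1437172_x_at and 1442732_at were not compared with each other. The pair of _x_at probe sets differed by -0.03 (exact permutation p = 0.3). Averaged over its 3 probe sets, Cpt1a had a log2 change of -0.04.

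**Figure D2:**
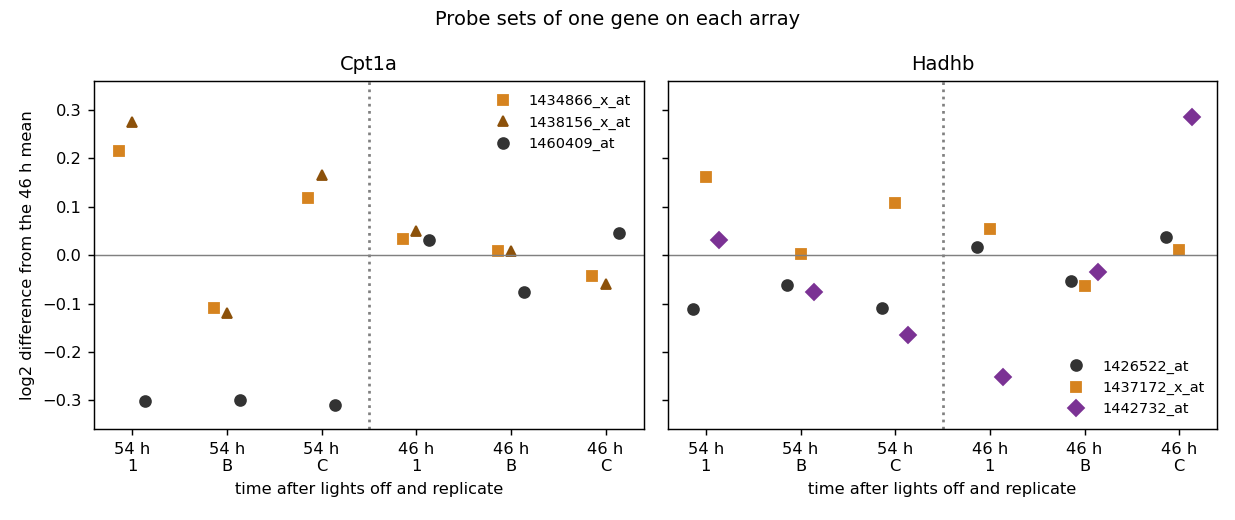
Log2 difference of each array from the 46 h mean for the 3 probe sets of Cpt1a (left) and of Hadhb (right), with log2 taken of intensity + 16. At 54 h the Cpt1a probe set 1460409_at stays near -0.30 on all 3 arrays while the _x_at probe sets spread from -0.12 to 0.27, and the Hadhb probe sets 1426522_at and 1437172_x_at lie on opposite sides of 0.

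Cpt2, the inner membrane partner of Cpt1a, had a smaller difference than the brightest Cpt1a probe set, in the same direction. The _x_at probe sets of Cpt1a went the other way. Probe set 1416772_at read 3352, 3041 and 3388 units at 54 h and 3717, 3470 and 3710 units at 46 h. The times did not overlap, and the log2 change was -0.16 ± 0.06 SE (limma adjusted p = 0.461). A dim Cpt2 probe set, 1447820_x_at, read 108 to 125 units at 54 h and 74.9 to 139 units at 46 h; it lay under the filter and was not tested.

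The 300-base promoter windows of Cpt1a and Acadm, the members with the smallest p, are shown because PPAR alpha, their known activator, binds pairs of the hexamer AGGTCA. Windows run from 250 bases before to 50 after the gene's start and come from RefSeq, build GRCm38.p6; all 8 members matched. Capitals mark AGGTCA on either strand, so that TGACCT is the hexamer on the other strand.
Cpt1a, chr19:3323051-3323350, plus strand: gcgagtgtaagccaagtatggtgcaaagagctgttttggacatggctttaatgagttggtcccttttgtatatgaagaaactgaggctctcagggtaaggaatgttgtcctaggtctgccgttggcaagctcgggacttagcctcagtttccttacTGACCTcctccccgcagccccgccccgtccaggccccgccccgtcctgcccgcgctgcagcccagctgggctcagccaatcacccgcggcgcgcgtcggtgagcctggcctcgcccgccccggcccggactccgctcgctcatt
Acadm, chr3:153944594-153944893, minus strand: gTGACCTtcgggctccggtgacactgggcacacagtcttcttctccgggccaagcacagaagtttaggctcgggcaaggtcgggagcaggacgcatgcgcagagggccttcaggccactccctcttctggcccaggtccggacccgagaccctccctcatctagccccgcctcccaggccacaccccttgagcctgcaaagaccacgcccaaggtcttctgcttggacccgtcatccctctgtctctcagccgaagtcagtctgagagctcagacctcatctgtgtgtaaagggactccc
The hexamer AGGTCA was found in the windows of 3 of the 8 members, Cpt1a, Acadm and Acadvl, and in 16.3% of all 32851 windows; every motif was searched on both strands. The paired form with 1 base between, AGGTCANAGGTCA, which contains the hexamer, was in 0 of the 8 and in 0.0396% of all windows. The E-box CACGTG, which the clock factors CLOCK and BMAL1 bind, was in 0 of the 8 and in 7.15% of all windows. Such matches describe letters in these windows only.

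The 3 acyl-CoA dehydrogenases, which open each turn of the spiral, all read lower at 54 h, by amounts that did not pass the adjusted test. Acadm, the medium-chain enzyme, read 7904, 8896 and 8106 units at 54 h and 9774, 9102 and 10021 units at 46 h. The times did not overlap, though 54h replicate B and 46h replicate B lay close together. The means were 8302 ± 525 units at 54 h and 9632 ± 476 units at 46 h (SD, n = 3 each). The difference was -0.21 ± 0.05 SE on the log2 scale, or 1.16-fold (limma adjusted p = 0.224).

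Acadl, the long-chain enzyme, read 6206, 6410 and 5846 units at 54 h and 6777, 6345 and 7036 units at 46 h through probe set 1448987_at. Here 54h replicate B lay above 46h replicate B, so the times overlapped, and the log2 change was -0.13 ± 0.05 SE (limma adjusted p = 0.479). The second Acadl probe set, 1448988_at, was dim, at 104 to 129 units at 54 h and 90.5 to 132 units at 46 h, and was not tested. Acadvl, the very-long-chain enzyme of the inner membrane, read 4629, 5508 and 5174 units at 54 h and 5503, 5143 and 5803 units at 46 h. Its times overlapped as well, and the difference was -0.11 ± 0.07 SE on the log2 scale (limma adjusted p = 0.663). It was -0.04 without 54h replicate 1, -0.06 without 46h replicate C and -0.16 without 54h replicate B.

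Hadha and Hadhb encode the alpha and beta subunits of the trifunctional protein, which carries out the remaining steps for long chains. The 2 genes lie head to head on chromosome 5, Hadha on the minus and Hadhb on the plus strand, with starts 273 bases apart, so their promoter windows share 228 bases. The windows are shown because both genes start beside this one stretch, which capitals mark; each is written 5′ to 3′ on the strand of its own gene.
Hadha, chr5:30154931-30155230, minus strand: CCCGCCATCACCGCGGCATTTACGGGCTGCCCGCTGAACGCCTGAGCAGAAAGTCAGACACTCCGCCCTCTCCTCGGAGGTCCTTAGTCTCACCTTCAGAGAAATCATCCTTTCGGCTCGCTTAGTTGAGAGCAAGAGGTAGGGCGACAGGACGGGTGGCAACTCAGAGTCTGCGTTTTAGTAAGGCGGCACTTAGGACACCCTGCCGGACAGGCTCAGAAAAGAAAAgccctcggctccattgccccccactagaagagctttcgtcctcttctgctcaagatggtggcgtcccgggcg
Hadhb, chr5:30155003-30155302, plus strand: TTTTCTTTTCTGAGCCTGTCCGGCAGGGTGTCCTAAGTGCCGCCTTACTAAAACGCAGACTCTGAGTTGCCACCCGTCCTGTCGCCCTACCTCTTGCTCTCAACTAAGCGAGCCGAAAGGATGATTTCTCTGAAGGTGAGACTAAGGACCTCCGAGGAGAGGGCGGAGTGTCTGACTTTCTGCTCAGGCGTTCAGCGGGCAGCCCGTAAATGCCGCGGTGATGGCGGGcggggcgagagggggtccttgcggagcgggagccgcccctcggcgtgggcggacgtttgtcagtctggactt
Neither window holds the hexamer or the E-box searched above.

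Hadha read 4732, 5884 and 5358 units at 54 h and 5940, 5659 and 6069 units at 46 h. The low value was that of 54h replicate 1, and 54h replicate B lay within the 46 h range. The log2 change was -0.15 ± 0.07 SE (limma adjusted p = 0.547), and it was -0.07 without 54h replicate 1.

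Hadhb had 3 probe sets, and its 2 bright ones went opposite ways. Probe set 1426522_at read 7156, 7414 and 7172 units at 54 h and 7822, 7449 and 7939 units at 46 h, so that the times just failed to overlap (log2 change -0.09 ± 0.04 SE, limma adjusted p = 0.495). Probe set 1437172_x_at, the brighter, read 10510, 9411 and 10130 units at 54 h and 9750, 8987 and 9458 units at 46 h, with overlap (log2 change 0.09 ± 0.05 SE, limma adjusted p = 0.578). Without 54h replicate 1 or 46h replicate B that change was 0.06. The change of 1426522_at minus that of 1437172_x_at was -0.18 on the log2 scale, with all 54 h arrays below all 46 h arrays (two-sided exact permutation p = 0.1, adjusted 0.167). The dim probe set 1442732_at, at 166 to 192 units at 54 h and 155 to 233 units at 46 h, had a log2 change of -0.07 ± 0.16 SE. A mean over its 3 probe sets gave Hadhb a log2 change of -0.02.

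Among the 12 member probe sets tested, 0 of the 3 with the suffix _x_at were lower at 54 h, against 8 of the other 9. Over the array, 43.3% of 1777 _x_at probe sets and 55.9% of 20010 plain _at probe sets were lower at 54 h, with median log2 changes of 0.02 and -0.02.

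**Figure D3:**
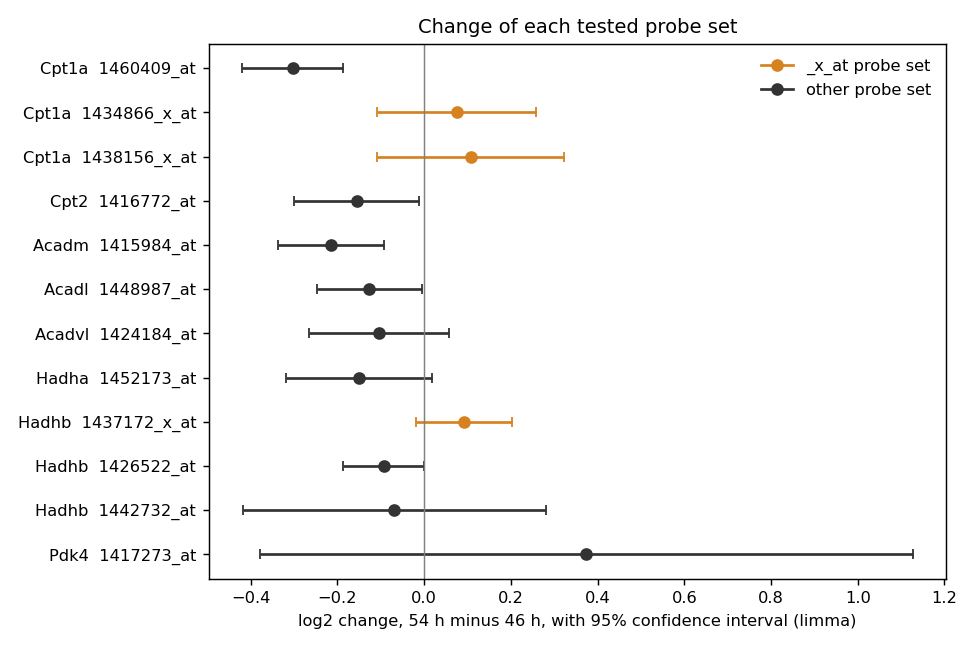
Log2 change, 54 h minus 46 h, with the 95% confidence interval from limma for the 12 member probe sets tested. The 3 _x_at probe sets (orange) stand right of 0 and the other probe sets left of it, except that of Pdk4, whose interval from -0.38 to 1.13 is the widest.

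Pdk4 encodes a kinase that switches off pyruvate dehydrogenase and is a known target of PPAR alpha and of glucocorticoids. It read 1399, 815 and 922 units at 54 h and 1152, 421 and 978 units at 46 h. The lowest array was 46h replicate B and the highest 54h replicate 1, and the times overlapped. The means were 1045 ± 311 units at 54 h and 850.3 ± 382 units at 46 h (SD, n = 3 each). The difference was 0.37 ± 0.33 SE on the log2 scale (limma adjusted p = 0.756). Without 46h replicate B the log2 change was -0.06. Leaving out 54h replicate 1 gave 0.15, and leaving out 46h replicate 1 gave 0.65. On 46h replicate B the adipose markers averaged 0.21 and the liver markers 0.32 below the 46 h mean on the log2 scale, and their part in the Pdk4 value was not tested. The adipose markers differed among themselves there: among the 46 h arrays Ucp1, Cidea, Adipoq, Fabp4 and Retn were lowest on that array, and Lep was highest.

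Read from the brightest probe set, all 8 members were lowest on 46h replicate B among the 46 h arrays, and 5 of 8 were highest on 46h replicate C. The 7 members other than Pdk4 averaged 0.07 below the 46 h mean on 46h replicate B and 0.05 above it on 46h replicate C. Other lists stood alike there, such as the peroxisomal genes at -0.07 and 0.05, the regulators at -0.06 and 0.06 and the cortex markers at -0.05 and 0.04. The medians over all probe sets tested were -0.03 and 0.03. At 54 h no array was lowest throughout: 54h replicate 1 was lowest for Acadm, Acadvl and Hadha, 54h replicate B for Cpt2, Hadhb and Pdk4, and 54h replicate C for Cpt1a and Acadl.

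The genes with the profile nearest to Cpt1a over the 6 arrays, by root mean square difference of centred log2 values, were Bfar (0.02), Ptprn2 (0.03) and Klf11 (0.03) out of 13772 genes, where Cpt1a itself spanned 0.35. For Pdk4, which spanned 1.70, they were Pde10a (0.18), Agmo (0.20) and Arid3b (0.21).

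Of 17 further mitochondrial beta-oxidation genes, 0 passed limma at an adjusted p of 0.05, and 8 were lower and 0 higher at an unadjusted p of 0.05; over all genes read by their brightest probe set 6.2% were called lower and 0.109% passed. Of the 17, 12 had a log2 change below 0 and 5 above it, with a median of -0.09. Acat1, the mitochondrial acetoacetyl-CoA thiolase, read 3576, 3859 and 3503 units at 54 h and 4309, 4206 and 4474 units at 46 h (log2 change -0.25 ± 0.06 SE, limma adjusted p = 0.195). Etfa and Etfdh, which pass electrons from the acyl-CoA dehydrogenases to the respiratory chain, had log2 changes of -0.20 ± 0.06 SE and -0.18 ± 0.05 SE, and Eci2, an enoyl-CoA isomerase, had -0.20 ± 0.06 SE. For these 4 genes the times did not overlap, with 54 h below 46 h. Acads, the short-chain dehydrogenase, had -0.24 ± 0.10 SE, the thiolase gene Acaa2 -0.13 ± 0.04 SE and Hadh, the short-chain hydroxyacyl-CoA dehydrogenase, -0.05 ± 0.04 SE. The count of 8 was 4 without 54h replicate C and 3 when the variance was moderated without an intensity trend. Of all probe sets, 2.77% and 5.26% were lower at an unadjusted p of 0.05 in those fits, against 5.75% in the main fit.

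Of 12 genes for fatty acid entry and carnitine 0 passed, with 1 lower and 2 higher at an unadjusted limma p of 0.05, where 6.2% of all genes were called lower and 4.11% higher. The median log2 change was 0.06, with 4 genes below 0 and 8 above. Slc25a20, the carnitine-acylcarnitine carrier that works between Cpt1a and Cpt2, read 2280, 1992 and 2030 units at 54 h and 1866, 1580 and 1928 units at 46 h, with every 54 h array above every 46 h array (log2 change 0.23 ± 0.10 SE, limma adjusted p = 0.462). Its second probe set had 0.02 ± 0.12 SE. The fatty acid transporter gene Slc27a1 had -0.19 ± 0.07 SE and Acsl4, an acyl-CoA synthetase, 0.12 ± 0.05 SE. Of 14 peroxisomal genes 0 passed, and 1 was lower (Ech1, -0.19 ± 0.05 SE) and 1 higher (Hsd17b4, 0.19 ± 0.08 SE) at the unadjusted threshold, each 7.14% and near those shares. The Hsd17b4 value came from an _x_at probe set, and its plain probe set had -0.04 ± 0.08 SE. The median of the list was 0.01, with 5 genes below 0 and 9 above; Ehhadh, the peroxisomal bifunctional enzyme, had -0.28 ± 0.15 SE. Both measured ketone body genes had log2 changes of 0.03. No gene of the pyruvate dehydrogenase list passed in limma (0 of 11, with 0 at an unadjusted p of 0.05). The log2 changes were 0.08 ± 0.11 SE for Pdk1, 0.23 ± 0.11 SE for Pdk2, -0.02 ± 0.13 SE for Pdk3 and -0.09 ± 0.06 SE for Pdha1, an E1 subunit of the complex these kinases act on.

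Of 18 regulators 0 passed and 3 were higher at an unadjusted limma p of 0.05, against 4.11% of all genes. Acaca, the carboxylase that makes malonyl-CoA for fatty acid synthesis, read 3784, 3735 and 3550 units at 54 h and 2833, 2585 and 3060 units at 46 h, with no overlap (log2 change 0.39 ± 0.07 SE, limma unadjusted p = 0.000409, adjusted p = 0.1004). Acacb, the form at the mitochondrial surface, had 0.18 ± 0.08 SE, and its dimmer probe set had 0.03 ± 0.12 SE. The dimmer Acaca probe set had 0.42 ± 0.28 SE. Lpin1, a phosphatidate phosphatase that also acts with PPAR alpha, had 0.22 ± 0.07 SE. Ppara itself read 1227, 1275 and 1209 units at 54 h and 1590, 1374 and 1299 units at 46 h on its brightest probe set (log2 change -0.19 ± 0.09 SE, limma adjusted p = 0.532), whereas 2 dimmer probe sets had 0.17 ± 0.12 SE and -0.01 ± 0.13 SE. The coactivator gene Ppargc1a had 0.05 ± 0.13 SE. Of 9 further PPAR targets 0 passed and 1 was lower at the unadjusted threshold, Plin5, a droplet protein of oxidative tissues, with -0.25 ± 0.10 SE; Angptl4 had 0.04 ± 0.17 SE.

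**Figure D4:**
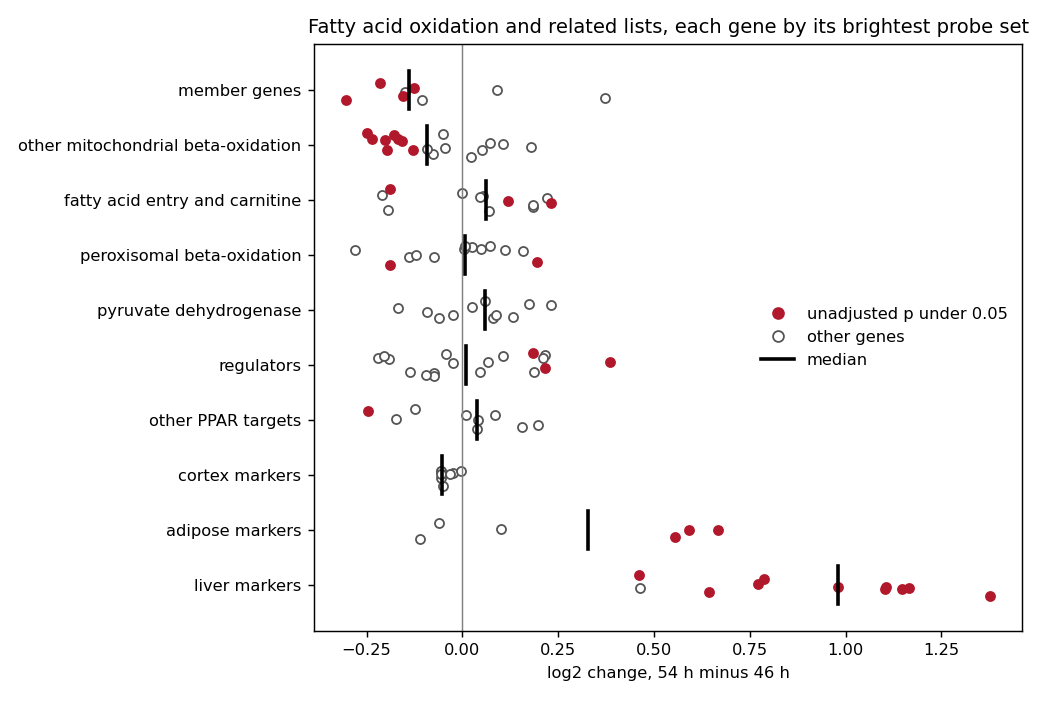
Log2 change, 54 h minus 46 h, of each tested gene read from its brightest probe set, by list, with the median of each list as a black bar and genes at an unadjusted limma p under 0.05 filled. The medians are -0.14 for the 8 members and -0.09 for the 17 other mitochondrial genes, near 0 for the peroxisomal and regulator lists, 0.33 for adipose markers and 0.98 for liver markers.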

How the data were processed

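The values deposited are linear intensities, 1 for each probe set of an Affymetrix mouse array and each of the 6 samples. RNA was purified on small columns and biotin-labelled, per the labels' protocols. The summary of probes, background correction and normalization are not given in the sources used here. Medians of log2(intensity + 16) per array over the probe sets tested differed by 0.0728 at most, so the deposited scale was kept. The highest intensity was 17879 units.

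From 45001 probe sets, 64 controls, 1 without a value and 1 with a damaged value were left out, which left 44935. The platform's annotation named exactly 1 gene for 34848 of them, several for 928 and none for 9159; gene IDs of 34644 were found in RefSeq (GRCm38.p6). The scale of analysis was log2(intensity + 16), on which fold changes of dim probe sets are understated. Probe sets whose mean log2 value lay above the 40th percentile, 26961 in all, were fitted in limma 3.58.1 under R 4.3.3 (lmFit, eBayes with an intensity trend) on the 6 arrays, with two-sided p-values adjusted by Benjamini-Hochberg over every probe set fitted, at 0.05. A gene was read from its probe set with the highest mean. Python 3.11.15 and matplotlib 3.10.9 drew the plots. The fit was also run on simulated data in which 200 probe sets were changed. It recovered few changes of 1.25-fold and a minority of those of 1.5-fold, so a member that did not pass is not thereby unchanged. How far a member may differ is given by its own 95% confidence interval. That interval lay within 1.25-fold either way for 7 of the 12 probe sets and within 1.5-fold for 11.

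The members, lists and alternatives were chosen with earlier results of these data known. Beside the members, up to 4 genes with the smallest p under 0.05 in each pathway list were named, with a set of well-known genes. Of the marker lists only some genes were named. Lists were described by counts and medians, with no set test. Alternatives were quantile or median scaling, other filters and offsets, other variance settings, weighting of arrays, a block for the replicate letter, the liver marker mean as a covariate, the mean over a gene's probe sets, and leaving out each array. The number of arrays limits the precision.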

Additional observations from a re-analysis of the deposited data

How the results depend on the processing

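Across 17 refits, those without 1 array included, no member probe set passed except with array weights, where 4 of 12 passed, all lower at 54 h (Cpt1a 1460409_at, Acadm, Acadl 1448987_at and Hadhb 1426522_at). With those weights 3466 of all 26961 probe sets tested passed, 1861 of them lower at 54 h, against 31 in the main fit. The count of all probe sets past the test, 31, was 47 with quantile normalization, 50 with arrays centred on their medians, 48 with the filter at the 60th percentile, 3 without an intensity trend, 61 with robust moderation, 3466 with array weights, 0 with the liver marker mean as a covariate, and 2 to 66 when an array was left out (2 without 46h replicate 1 or 54h replicate C, 18 without 46h replicate B, 61 without 54h replicate B and 66 without 54h replicate 1). With the replicate block it was 45, with 0 members. The labels do not say whether the letters pair the arrays. Same-letter arrays correlated at -0.06, -0.41 and -0.49 in their deviations from the time means, and other pairs at -0.04 to 0.46. Deviations from a mean of 3 arrays depend on one another, so these correlations cannot settle the pairing. The 5 member probe sets lower at an unadjusted limma p of 0.05 became 2 with centred arrays, 2 without a trend, 2 with the block, and 2 to 6 without an array, 2 without 46h replicate 1 or 46h replicate C and 3 without 54h replicate 1 or 54h replicate C. Of all probe sets, 4.48% were lower at that p with centred arrays, 5.26% without a trend and 3.64% with the block. Without an array the share was 2.77% to 7.83%. Over the 12 probe sets, 201 of 211 log2 changes kept direction and side of the threshold (direction only for means over probe sets). Another 6 turned. Pdk4 had -0.0221 with array weights, -0.406 with the liver covariate and -0.0608 to 0.649 without an array, below 0 without 46h replicate B. Hadhb had -0.0239 as a mean over its probe sets. Its dim probe set 1442732_at had 0.0335 with array weights and -0.195 to 0.0742 without an array, above 0 without 46h replicate C. The cause was not tested. Cpt1a 1460409_at ran from -0.34 to -0.28 without an array and was -0.04 as a mean over its probe sets; the adjusted p ran from 0.00235 to 0.463. With the liver covariate the log2 change was -0.42 for Cpt1a 1460409_at, 0.33 and 0.41 for the other Cpt1a probe sets, -0.46 for Acadm, -0.29 for Acadl, -0.42 for Acadvl, -0.46 for Hadha, -0.21 for Hadhb 1426522_at and -0.15 for Cpt2, with no adjusted p under 0.05. Relative to the 46 h mean, the 13 liver markers averaged 0.70, 1.21 and 0.91 on the 54 h arrays and 0.17, -0.32 and 0.15 on the 46 h arrays. The covariate thus largely follows time, so these values and the count of 0 cannot separate liver from time. In a count added after the data were seen, 3 to 10 of the 17 other mitochondrial genes were lower at an unadjusted p of 0.05. The 10 came with array weights, where 18.1% of all probe sets were lower at that p. The 3 came without a trend, where 5.26% were.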
